A study of Rattus norvegicus with 12 samples.

Results

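Genes of the mitochondrial respiratory chain and ATP synthase were followed across 4 groups of rat striatum in a hemiparkinson model. Members were all array probes whose RefSeq symbol began with Nduf, Uqcr, Cox4 to Cox8 or Atp5, or with Sdha, Sdhb, Sdhc or Sdhd. The rule used names and no measured value. It found 103 probes of 82 genes, among 30367 probes of which 17328 carried a symbol and covered 14629 genes. Of the 82 genes, 80 were tested among 19412 features, since Cox8c was too dim and Cox7c had no usable spot on 1 array: 37 of complex I, 6 of complex II, 8 of complex III, 14 of complex IV and 15 of complex V, assembly factors and tissue isoforms included. RefSeq lists 122 protein-coding rat genes that fit the rule, and the 40 without a matched probe are not analysed here, Cox6b2, Cox7a1, Cox7b2 and Ndufa4l2 among them.

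All rats had received 6-hydroxydopamine in the medial forebrain bundle of the left side, where this toxin destroys the dopamine fibres to the striatum, and had made at least 7 turns per min after methamphetamine at 3 mg/kg. Treatment ran once per day for 7 days. The ZDL group is the lesioned striatum of rats given L-DOPA (100 mg/kg) followed by zonisamide (50 mg/kg), a drug against epilepsy that is also given for Parkinson's disease. The DL group is the lesioned striatum after L-DOPA (100 mg/kg) alone, the dopamine precursor, and both L-DOPA groups also received benserazide, a peripheral decarboxylase inhibitor. The SL group is the lesioned striatum after saline, and the NL group is the non-lesioned side of saline-treated lesioned rats, so it is the other hemisphere of an operated animal. Each group had 3 arrays of separate animals per the series' design text. All were male Wistar rats, and age is not given in the labels. Whether the SL and NL arrays share animals is not given either.

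The arrays were single-colour Agilent arrays, and every value below is the log2 processed signal of a probe minus the array's 75th percentile, so 0 is the level of that percentile. The 75th percentile lay between 793.2 and 1737 signal units, and 67.62 to 73.96% of probes were well above background per array. The median coefficient of variation between replicate spots of one probe, as the files give it, was 3.739 to 27.78%. It was above 20% on 5 arrays: ZDL3, DL3, NL1, NL2 and NL3, so that all NL arrays and no SL array lie above that value. Arrays shared slides (slide 1 held ZDL1, DL1, SL1 and NL1; slide 2 held ZDL2, DL2 and SL2; slide 3 held ZDL3, DL3 and NL2; SL3 and NL3 were alone on theirs). All 10 markers of striatal spiny neurons were above background on every array. Of 4 listed cortical markers 3 had a probe and 1, Neurod6, passed the filter. It was −2.50 on DL1 and −2.71 on ZDL1, against −6.94 to −4.04 on the other arrays. In RNA of bulk tissue, fewer cells of a type and less RNA per cell cannot be told apart.

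Complex I (NADH dehydrogenase) and complex II (succinate dehydrogenase) pass electrons to ubiquinone, complex III hands them on to cytochrome c and complex IV to oxygen, while complex V uses the proton gradient built on the way to make ATP. Most subunits are encoded in the nucleus and these are the members here. In nerve cells the chain supplies most of the ATP that ion pumping and synaptic transmission use. Complex I in particular is known as a target of toxins that cause parkinsonism, and 6-hydroxydopamine has been described to impair respiration in mitochondria of the neurons it enters. Spiny neurons, which make up most of the striatum, are not the cells that the toxin kills.

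Nuclear respiratory chain genes are known to be driven by promoters with sites for NRF1, ETS factors (GABPA) and YY1, while muscle isoforms such as Cox8b are under tissue-specific control. RefSeq promoters (build GRCr8, 250 bases before to 50 after the start) were at hand for 73 of the 82 genes. The NRF1 motif was in 14 of these 73 promoters (19.2%), against 4.25% of all 33469 promoters. The ETS motif CCGGAAGT was in 7 (9.59%), against 3.81% of all promoters, and the YY1 motif was in 7 (9.59%), against 0.675%. The SP1 motif GGGCGG was in 33 (45.2%), against 33.1%, and TATAAA in 6 (8.22%), against 14.2%. Both strands were searched and overlaps were allowed. Members counted with 1 promoter per gene, while the background took every promoter at hand, not cut to 1 per gene or to tested genes. The members' promoters were also richer in G and C, with a median of 57.3% against 51.7%, which by itself moves the share that holds GC-rich letters. By complex, the YY1 motif was in 6 of 34 complex I promoters and 1 of 6 of complex III, and in none of complexes II, IV and V; the NRF1 motif was in 0 of 13 complex IV promoters. A match is a description of letters, not a site in use.

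The stretch from 150 bases before to 30 after the start is given for 3 genes, with matches to the searched motifs in capitals. Sdha (chr1:30764403-30764582, plus strand) had the smallest p of the members between SL and NL and between ZDL and SL. Uqcrc1 (chr8:118468073-118468252, plus strand) had the smallest p of the members between ZDL and DL. Cox8b (chr1:205408244-205408423, minus strand) was the member that varied most. All are written 5′ to 3′ on the gene's own strand.
Sdha: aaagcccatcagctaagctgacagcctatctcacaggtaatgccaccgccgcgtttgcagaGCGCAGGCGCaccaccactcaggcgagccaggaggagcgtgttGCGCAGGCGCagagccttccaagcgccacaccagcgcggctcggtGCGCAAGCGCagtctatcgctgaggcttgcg
Uqcrc1: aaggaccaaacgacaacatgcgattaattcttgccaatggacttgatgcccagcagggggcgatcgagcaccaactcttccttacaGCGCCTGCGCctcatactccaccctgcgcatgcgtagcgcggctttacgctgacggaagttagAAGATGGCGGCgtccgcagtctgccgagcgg
Cox8b: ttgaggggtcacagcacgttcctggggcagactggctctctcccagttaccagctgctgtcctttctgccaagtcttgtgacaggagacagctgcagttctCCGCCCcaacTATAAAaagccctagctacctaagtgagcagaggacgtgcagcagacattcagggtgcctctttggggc
Sdha held 3 matches to the NRF1 motif on the minus strand. Uqcrc1 held 1 NRF1 match, and a YY1 match that spanned its start. Cox8b held neither. It had TATAAA beginning 39 bases before its start and an SP1 match on the minus strand. No stretch is printed for Ndufaf7, the member with the smallest p between DL and SL. Its promoter held 1 SP1 match and no NRF1, ETS, YY1 or TATAAA match.

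No respiratory chain gene passed an adjusted p of 0.05 in any of the 4 comparisons, each tested with limma in 1 fit to all 12 arrays and adjusted over 19412 features. The share of all features called was 0% between SL and NL, 0.433% between DL and SL (0.33% higher and 0.103% lower in DL), 0.479% between ZDL and DL (0.0876% higher and 0.392% lower in ZDL), and 0% between ZDL and SL, so that a list of 80 at the background share would also hold no call or hardly any. At an unadjusted p under 0.05, 8 members differed between SL and NL (background 8.48%), 3 higher in SL (6.33%) and 5 lower (2.15%). Between DL and SL 7 did (11.3%), 5 higher in DL (5.98%) and 2 lower (5.32%). Between ZDL and DL 1 did (12.4%), higher in ZDL (4.64%; 7.77% of features were lower), and between ZDL and SL 3 did (7.34%), 2 higher in ZDL (1.91%) and 1 lower (5.42%). As percentages of the 80 members these are 10, 8.75, 1.25 and 3.75. The smallest adjusted p was 0.507 for Sdha between SL and NL, 0.224 for Ndufaf7 between DL and SL, 0.141 for Uqcrc1 between ZDL and DL, and 0.656 between ZDL and SL.

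The absence of calls came with intervals that leave limited room for large changes in most members. The 95% interval of the change lay within 2-fold either way for 62 of 80 members between SL and NL, 61 between DL and SL, 63 between ZDL and DL and 65 between ZDL and SL, against 60.5, 58, 57 and 60.9% of all features. Within 1.5-fold either way lay 35, 40, 34 and 35 members, against 25.5, 23.8, 22.6 and 25.3% of all features. The other members could have differed by more than 2-fold at this precision. The median SD within groups was 0.227 log2 for the members, against 0.336 for all features and 0.247 for the 2147 features at or above the members' lower quartile of signal, so brightness goes along with most of that gap.

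**Figure D1:**
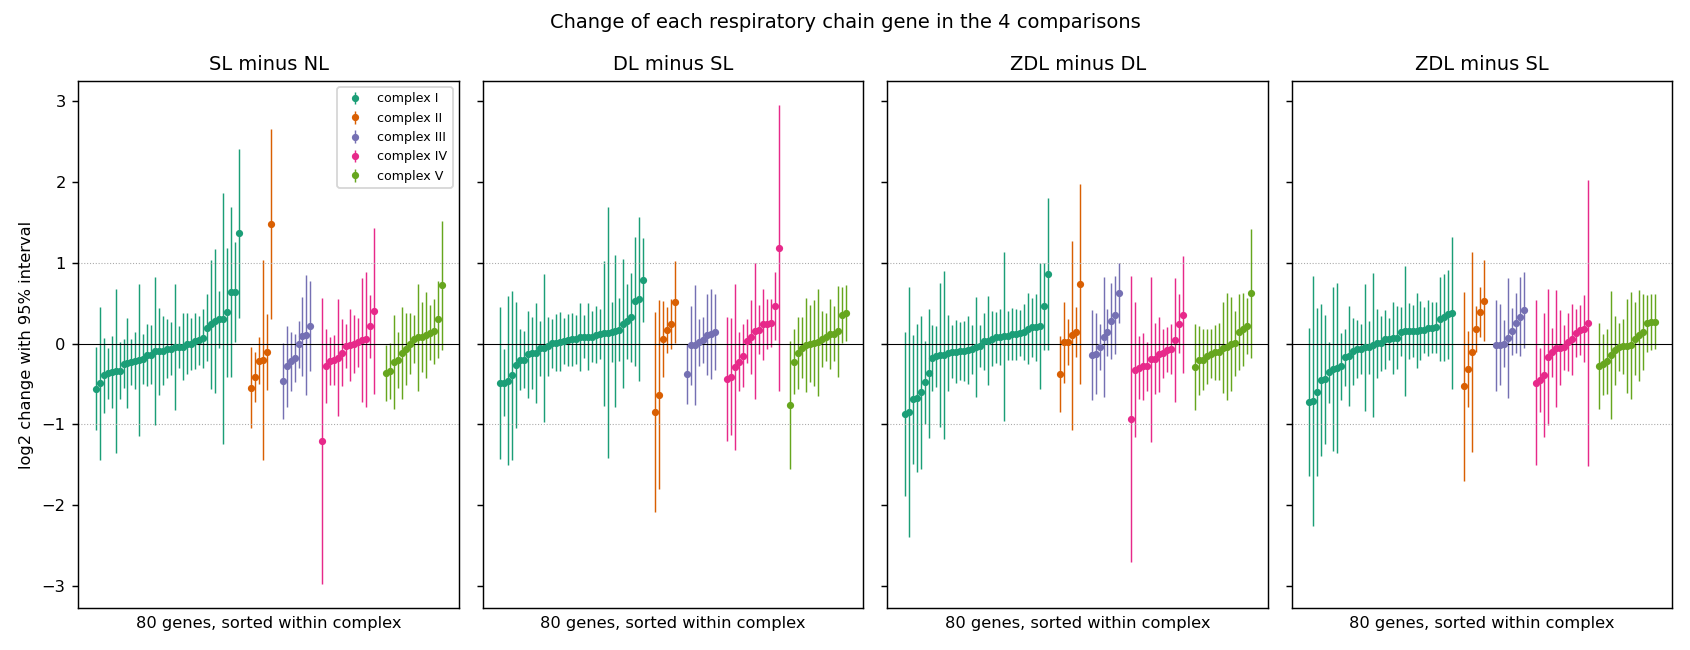
Log2 change of each of 80 respiratory chain genes in the 4 comparisons, coloured by complex and sorted within it. Points are limma estimates, bars are 95% intervals, and dotted lines mark a 2-fold change either way. The widest intervals belong to Cox8b, Ndufab1 and Sdhaf2.

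The members leaned lower in the lesioned striatum of saline rats and leaned higher after L-DOPA, by small amounts. Between SL and NL, 29 of 80 members (36.25%) had a higher mean in SL, against 55.4% of all features. Their median log2 change was −0.06, against 0.05 for all features. Of the 11110 features with a symbol, 50.24% were higher in SL, with a median of 0.00. Groups that did not overlap placed 5 members higher and 16 lower in SL, where the background was 8.66 and 8.34% (17% in all). Of the 11110 features with a symbol, 795 lay wholly higher and 1140 wholly lower in SL (17.42% in all). Between DL and SL, 52 of 80 members (65%) had a higher mean in DL, against 46.7%, with a median of 0.05, against −0.03. Of the features with a symbol, 50.12% were higher in DL, with a median of 0.00. There, 16 members lay wholly above and 4 wholly below SL, with a background of 11.7 and 10.8% (22.4% in all). Of the 11110 with a symbol, 1527 lay wholly above and 1111 wholly below SL (23.74% in all). Markers of other cell types moved in the same comparisons. All 5 vessel markers were higher in SL than in NL (median 0.51; summed level 1.56 to 1.97 in SL and 1.19 to 1.53 in NL), as were all 5 microglia markers (median 0.25; 3.56 to 4.15 in SL and 3.22 to 3.82 in NL). All 7 tested choroid plexus markers were lower in SL than in NL (median −1.68) and higher in DL than in SL (median 2.91). The 4 meninges markers had the same directions (medians −0.44 and 0.50). The choroid plexus sum was 2.48, 3.17 and 7.03 in NL, against 0.18, 4.41 and 3.40 in SL. In DL it was 4.37, 7.40 and 6.95. Among the NL arrays only NL3 lay above the SL range, in this sum and in the meninges sum, and DL1 did not in either. None of these markers passed the test, all 5 vessel and all 5 microglia markers were above background on every array, and their part in the members' values was not tested. The comparisons of SL with NL and of DL with SL share the SL arrays, so an unusual SL level of a gene enters both with opposite sign.

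Adding zonisamide to L-DOPA left the members' median at −0.05, against −0.03 for all features, with 35 of 80 higher in ZDL (43.75%, against 46.2%). Of the features with a symbol, 48.53% were higher in ZDL, with a median of −0.01. Wholly above DL lay 6 members and wholly below it 6, with a background of 6.82 and 10.5% (17.3% in all). Of the 11110 with a symbol, 897 lay wholly above and 1226 wholly below DL (19.11% in all). Between ZDL and SL the median was 0.00, against −0.05, and 40 of 80 were higher in ZDL (50%, against 43.5%). Of the features with a symbol, 48.52% were higher in ZDL than in SL, with a median of −0.01. There 16 members lay wholly above SL and 1 wholly below, with a background of 6.57 and 11.6% (18.1% in all). Of the 11110 with a symbol, 905 lay wholly above and 1038 wholly below SL (17.49% in all). All 5 vessel markers were lower in ZDL than in DL (median −0.56; summed level 1.03 to 1.24 in ZDL and 1.86 to 2.20 in DL) and lay wholly below SL in ZDL (median −0.49), with none past the test and no test of their part in the members' values. Arrays of each group differed little in their median over the members' deviations from their own means: 0.06, −0.00 and −0.01 in ZDL, 0.02, 0.05 and 0.09 in DL, 0.03, −0.04 and 0.00 in SL, and 0.06, 0.05 and 0.13 in NL. All 4 groups overlapped or touched on this measure, except that every NL array lay above every SL array; SL2 was the lowest array and NL3 the highest.

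These small leanings moved with the slide and the scaling. On slide 1 the members' median change was −0.03 between DL1 and SL1, and on slide 2 it was 0.12 between DL2 and SL2. Between ZDL and DL it was 0.04 on slide 1, −0.06 on slide 2 and −0.09 on slide 3, and between ZDL and SL it was 0.03 on slide 1 and 0.09 on slide 2. The only slide with both SL and NL gave −0.07. With quantile normalization 18.8% of members were higher in SL than in NL, against 39.6% of all features, and the median of all features went to −0.09. In all 26 alternatives the members' median between SL and NL stayed below 0 and below that of all features, and in all 27 alternatives their median between DL and SL stayed above both. Between ZDL and DL the median was above 0 in 2 of 27 alternatives. Some alternatives cannot move a median, such as leaving out an array of a group not compared or fitting only the groups compared. They leave it as reported, and they are among these counts, here and by complex below. The share of members higher in ZDL than in DL reached 56.2% with median scaling (all features 55.5%), and the share higher in ZDL than in SL reached 71.2% (all features 56.6%).

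**Figure D2:**
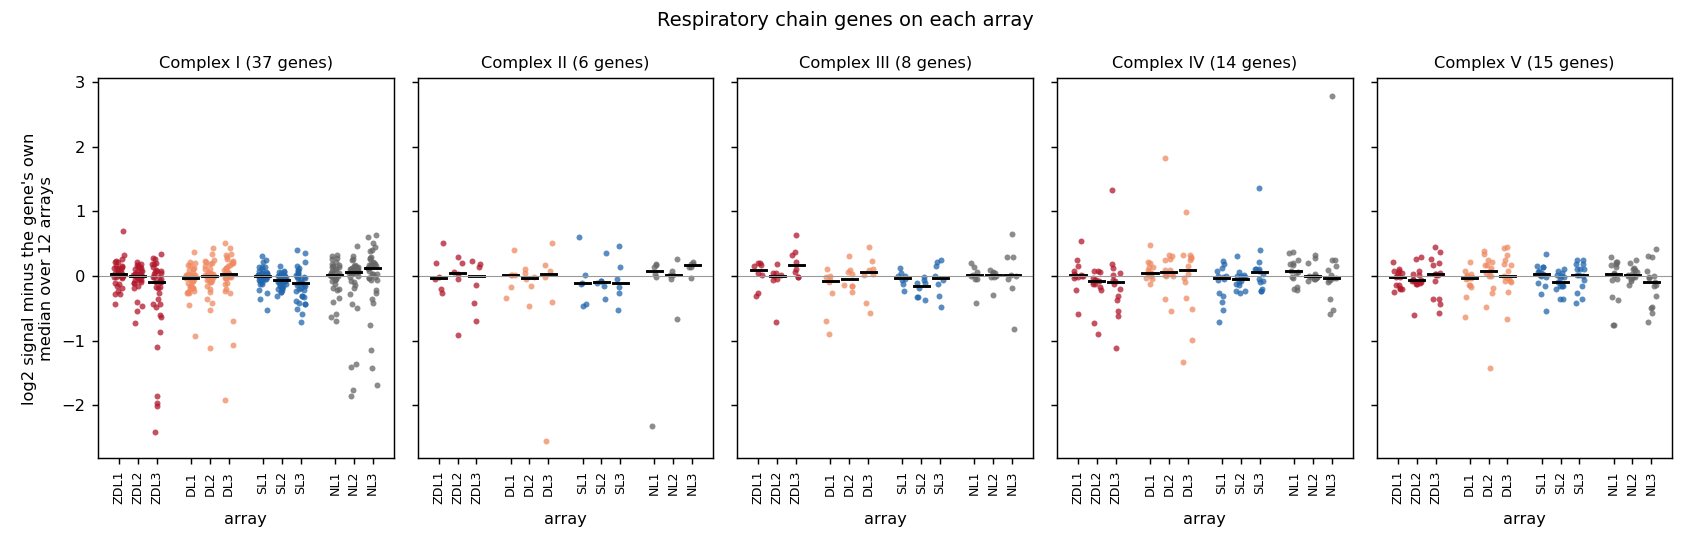
Each point is 1 respiratory chain gene on 1 array, as its log2 signal minus its own median over the 12 arrays, with the arrays along the x axis and a panel for each complex. Black bars are the median over the genes of the panel; they stay close to 0 on every array, while single genes reach down to −2.55 and up to 2.79.

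Complex I, the largest complex, was represented by 7 core subunits, 24 accessory subunits, 5 assembly factors and the paralog Ndufa10l1. Its 37 genes had a median change of −0.06 between SL and NL (12 higher in SL), 0.05 between DL and SL (24 higher in DL), −0.04 between ZDL and DL (17 higher in ZDL) and 0.00 between ZDL and SL (20 higher in ZDL). Over the alternatives the median between ZDL and DL ran from −0.04 to 0.07 and was below 0 in 18 of 27, and that between ZDL and SL ran from −0.02 to 0.13 and was below 0 in 4 of 27, so neither had a settled direction. It stayed below 0 between SL and NL and above 0 between DL and SL in all alternatives. The 7 core subunits, which carry the electron path, changed by a median of −0.04, −0.12, 0.08 and −0.02 in the same 4 comparisons. None of them passed the test.

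Ndufaf7, known from human cells as an arginine methyltransferase that modifies a core subunit while complex I is assembled, had the smallest p of all members between DL and SL. Its values were −0.69, −0.48 and −0.32 in DL, against −1.18, −1.13 and −1.54 in SL. The groups did not overlap, and the log2 change was 0.79 ± 0.23 (SE, n = 3 each; adjusted p = 0.224). In ZDL it was −0.81, −0.83 and −1.29, wholly below DL, with a change of −0.48 ± 0.23 between ZDL and DL (adjusted p = 0.444). In NL it was −1.16, −0.35 and −0.67, a range that overlaps ZDL, DL and SL. The probe has 1 spot per array. A second tested Ndufaf7 probe had a change of 0.34 ± 0.34 between DL and SL and of −0.47 ± 0.34 between ZDL and DL, in the same directions, while between SL and NL the pair of probes differed in sign (−0.56 and 0.59).

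Ndufs5, an accessory subunit, had 4.65, 4.49 and 4.74 in SL, against 3.64, 2.58 and 3.58 in NL, a change of 1.36 ± 0.47 (SE, n = 3 each; adjusted p = 0.514). It was 4.67, 4.18 and 3.24 in ZDL and 4.72, 3.22 and 4.57 in DL, so that low values occurred in every group but SL. The 2 spots of its probe on NL3 read 2.37 and 4.78, and on DL2 1.60 and 4.84, while on NL2 both were low (2.41 and 2.74). The second tested Ndufs5 probe gave 0.25 ± 0.35 between SL and NL. Ndufa2, an accessory subunit, had 2.08, 2.04 and 1.81 in SL, against 2.45, 2.22 and 2.35 in NL. SL lay wholly below NL, with a change of −0.37 ± 0.14 (adjusted p = 0.559).

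Ndufa10, an accessory subunit whose phosphorylation depends on the Parkinson's disease kinase PINK1 in mice, had 1.72, 1.48 and 1.21 in DL, against 1.92, 1.89 and 2.05 in SL. The groups did not overlap and the change was −0.48 ± 0.19 (SE, n = 3 each; adjusted p = 0.357). In ZDL it was 2.03, 1.44 and 1.55 and in NL 2.01, 2.03 and 1.93, so ZDL spanned both levels. Ndufa9, an accessory subunit near the ubiquinone site, had 1.88, 1.67 and 1.71 in ZDL, against 1.46, 1.53 and −0.30 in DL, with a change of 0.86 ± 0.42 (adjusted p = 0.455). Without DL3 that change was 0.26. Its probe has 1 spot per array.

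Ndufv3, an accessory subunit of the NADH-oxidising module, had 3.27, 3.65 and 2.85 in ZDL, against 3.88, 3.93 and 4.01 in DL, with a change of −0.69 ± 0.36 (SE, n = 3 each; adjusted p = 0.484). The groups did not overlap. The other two Ndufv3 probes tested gave 0.23 ± 0.13 and −0.26 ± 0.17, so the probes differed in sign. Ndufb2, an accessory subunit of the membrane arm, had 3.75, 3.81 and 3.23 in ZDL, against 3.91, 3.87 and 4.09 in SL, with a change of −0.36 ± 0.17 (adjusted p = 0.673). It was the 1 member wholly below SL in ZDL.

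Complex II is the one complex that also works in the citric acid cycle, and it has no subunit encoded in mitochondrial DNA. Sdha, its flavoprotein, had 2.32, 2.62 and 2.51 in SL, against 2.94, 2.79 and 2.97 in NL. SL lay wholly below NL, and the change was −0.42 ± 0.14 (SE, n = 3 each; adjusted p = 0.507). In ZDL it was 2.97, 2.73 and 2.91, wholly above SL by 0.39 ± 0.14 (adjusted p = 0.656), and in DL 2.80, 2.62 and 2.77, which touched the highest SL array. The 2 spots on SL1 read 1.88 and 2.75. With the brighter spot of each array, SL still lay wholly below NL (2.75, 2.63 and 2.52, against 3.02, 2.82 and 3.01). That choice raises arrays whose spots disagree more, and the replicate-spot spread was wider on all NL arrays. Over all features it moved the share higher in SL from 55.4 to 45.6%, so it leans towards lower SL values. Over all alternatives the Sdha change between SL and NL ran from −0.67 to −0.32, with adjusted p of 0.373 at the lowest.

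Sdhaf1, an assembly factor that helps to put iron-sulphur clusters into Sdhb, had the same order. It was 2.15, 2.22 and 2.06 in SL, below all 9 other arrays: 2.32, 2.88 and 2.82 in ZDL, 2.24, 2.63 and 3.09 in DL, and 2.76, 2.53 and 2.77 in NL. The change was −0.55 ± 0.23 between SL and NL (adjusted p = 0.577), 0.51 ± 0.23 between DL and SL (adjusted p = 0.432) and 0.53 ± 0.23 between ZDL and SL (adjusted p = 0.67). With normexp background correction and quantile normalization the first 2 of these turned sign, to 0.02 and −0.13. Its probe has 1 spot per array.

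Sdhd, a membrane anchor measured by 10 spots per array, had 2.83, 2.85 and 2.76 in SL, against 2.92, 3.00 and 3.15 in NL, a change of −0.21 ± 0.13 (SE, n = 3 each; adjusted p = 0.664). DL had 2.94, 2.91 and 3.09 and ZDL 2.88, 3.00 and 3.11, so SL was again the lowest group, by a fraction of a 2-fold step. Sdhb, the iron-sulphur subunit, had 2.21, 2.12 and 2.16 in SL, against 2.23, 2.22 and 2.35 in NL, with a change of −0.10 ± 0.21 (adjusted p = 0.918) that turned to 0.13 with slide as a fixed block. In ZDL it was 2.19, 1.28 and 2.06 and in DL 2.22, 2.16 and 2.28, so 1 ZDL array stood low.

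Sdhc, the other membrane anchor, went the opposite way and had the largest change of any member between SL and NL. Its values were 2.00, 1.76 and 1.85 in SL, against −0.92, 0.73 and 1.36 in NL, a change of 1.48 ± 0.53 (SE, n = 3 each; adjusted p = 0.529). ZDL had 1.91, 1.43 and 0.69 and DL 1.80, 0.93 and 0.99. The NL values rest on spots of 1 probe that disagree: −3.90 and 2.06 on NL1, −0.73 and 2.20 on NL2, and 0.66 and 2.07 on NL3. With the brighter spot of each array SL had 2.02, 1.93 and 1.88 and NL 2.06, 2.20 and 2.07, and the change turned to −0.17. That choice raises the arrays whose spots disagree, here those of NL, so the sign for Sdhc is not settled.

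Complex II as a whole had a median change of −0.21 between SL and NL (1 of 6 genes higher in SL), 0.11 between DL and SL (4 of 6 higher in DL), 0.06 between ZDL and DL and 0.04 between ZDL and SL. In all 26 alternatives its median between SL and NL was below 0, from −0.38 to −0.19, while no member of it passed the test. Its median between ZDL and DL ran from −0.01 to 0.19 and was below 0 in 2 of 27 alternatives. On the 1 slide shared by SL and NL it was −0.18.

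**Figure D3:**
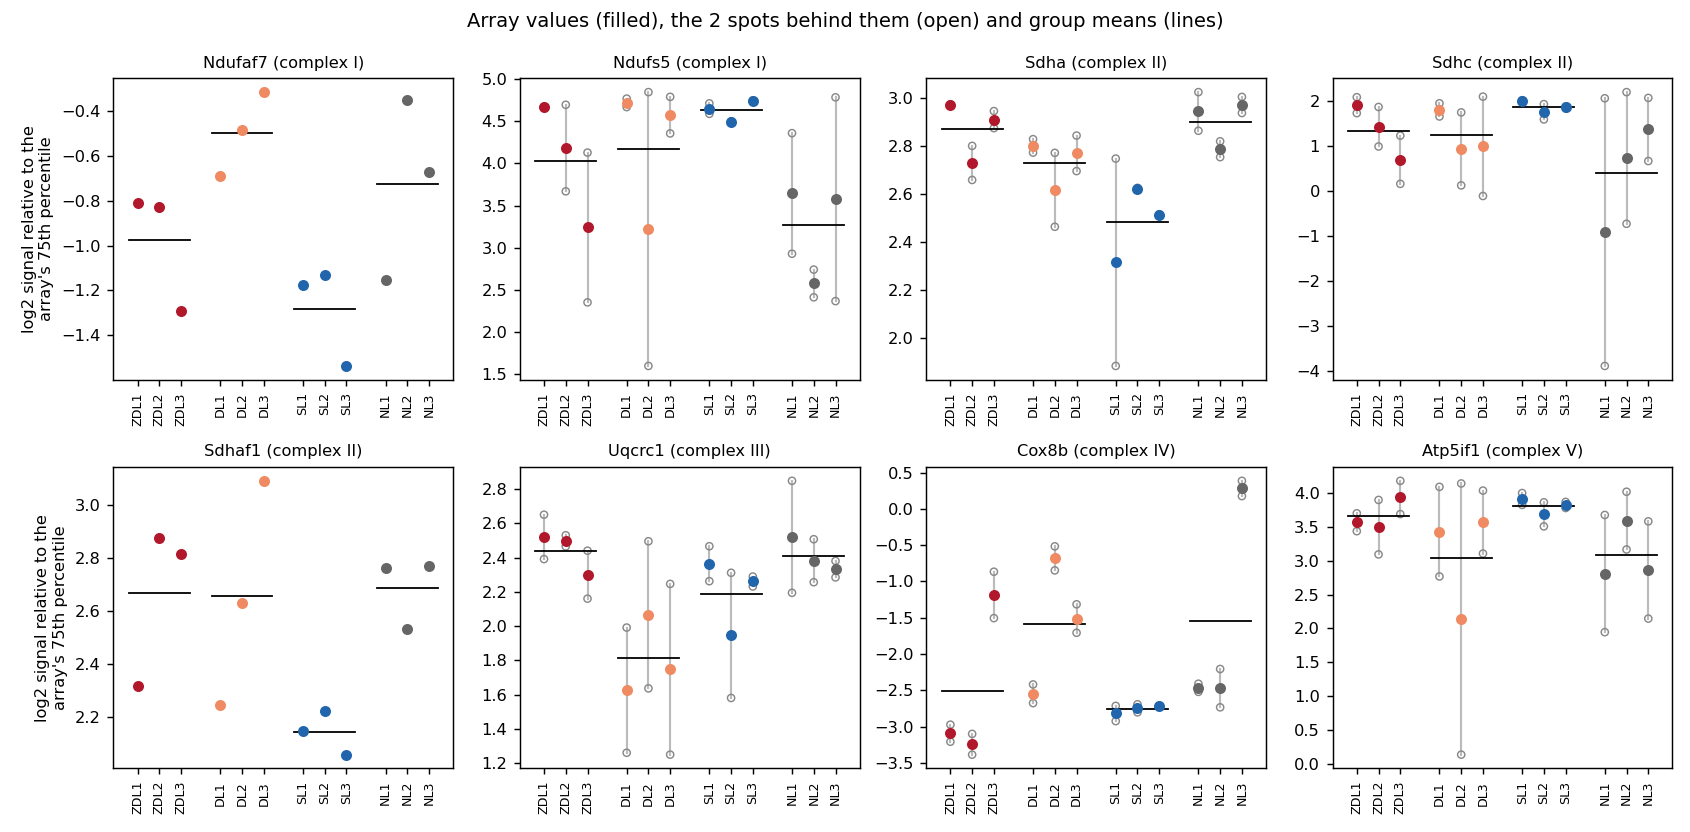
Log2 signal relative to the array's 75th percentile of 8 respiratory chain genes on the 12 arrays. Filled points are the array values, open points the lowest and highest spot of the probe where it has 2 spots, and lines the group means. Sdha and Sdhaf1 have their lowest group mean in SL, and Ndufaf7 has its highest in DL. Sdhc, Ndufs5 and Atp5if1 have arrays whose spots lie far apart, while the spots of Cox8b lie closer together.

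Complex III passes electrons from ubiquinol to cytochrome c, and the intervals of all 8 genes lay within 2-fold either way in every comparison. Their medians were −0.09 between SL and NL, 0.03 between DL and SL, 0.11 between ZDL and DL and 0.11 between ZDL and SL, and over the alternatives only that between DL and SL turned sign, in 2 of 27. Uqcrc1, one of its large core-protein subunits, which lack redox centres, had 2.52, 2.50 and 2.30 in ZDL, against 1.63, 2.07 and 1.75 in DL. The groups did not overlap and the change was 0.63 ± 0.17 (SE, n = 3 each; adjusted p = 0.141), and on the shared slides 1, 2 and 3 it was 0.90, 0.43 and 0.55. SL had 2.36, 1.95 and 2.26 and NL 2.52, 2.38 and 2.33, so DL was the low group. On all DL arrays the 2 spots lay apart (1.26 and 1.99 on DL1, 1.64 and 2.50 on DL2, 1.25 and 2.25 on DL3). They also did on SL2 (1.58 and 2.31) and NL1 (2.195 and 2.849). With the brighter spot the change was 0.30 and ZDL (2.65, 2.53 and 2.44) overlapped DL (1.99, 2.50 and 2.25). Uqcrfs1, the Rieske iron-sulphur protein, had 3.02, 2.86 and 3.23 in ZDL, against 2.73, 2.75 and 2.38 in SL, wholly above it, with a change of 0.42 ± 0.21 (adjusted p = 0.681).

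Complex IV, cytochrome c oxidase, takes the electrons to oxygen, and several of its nuclear subunits exist as a ubiquitous and a tissue form. Its 14 genes had a median change of −0.16 between ZDL and DL, with 3 of 14 higher in ZDL, while their medians were −0.02 between SL and NL, 0.12 between DL and SL and −0.05 between ZDL and SL. The 3 higher in ZDL were Cox4i1, Cox5b and Cox7a2l. The median over the complex IV genes' deviations was 0.02, −0.10 and −0.12 on the ZDL arrays, against 0.08, 0.13 and 0.10 on the DL arrays. The difference was −0.03 on slide 1, −0.17 on slide 2 and −0.17 on slide 3, and it stayed below 0 in all 27 alternatives (−0.18 to −0.08). The median between ZDL and SL had no settled direction, from −0.10 to 0.26 and below 0 in 20 of 27, and that between DL and SL was below 0 in 1 of 27. No complex IV gene passed the test between ZDL and DL.

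Cox6c, a small subunit of the complex, had 5.48, 5.41 and 5.35 in ZDL, against 5.53, 5.75 and 5.80 in DL. ZDL lay wholly below DL, with a change of −0.28 ± 0.14 (SE, n = 3 each; adjusted p = 0.443), and SL had 5.48, 5.39 and 5.70 and NL 5.47, 5.47 and 5.57. Cox5a, a subunit on the matrix side, had 4.04, 4.15 and 4.24 in DL, against 3.38, 3.97 and 3.68 in SL, wholly above it, with a change of 0.47 ± 0.19 (adjusted p = 0.379). ZDL had 4.07, 3.97 and 3.54 and NL 3.69, 3.83 and 3.85. Cox6a1, the ubiquitous form of its subunit, had 6.70, 6.47 and 6.13 in ZDL, against 6.91, 6.67 and 7.08 in SL, with a change of −0.45 ± 0.18 (adjusted p = 0.656) and overlapping groups.

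Of the ubiquitous forms, Cox8a had 5.56 to 5.85 over all 12 arrays and Cox7b 3.49 to 3.96, both measured by 10 spots. Cox4i1 had 5.92, 5.78 and 6.00 in ZDL, 5.98, 6.04 and 4.62 in DL, 6.14, 5.83 and 5.91 in SL, and 6.20, 6.27 and 5.92 in NL, so 1 DL array stood low. Cox6b1 ran from 2.62 to 3.43, Cox7a2 from 3.71 to 4.42 and Ndufa4, now counted as a subunit of complex IV, from 4.08 to 4.65. These are ranges over all 12 arrays. Within them Cox7b in SL (3.49 to 3.67) lay wholly below NL (3.68 to 3.96) and DL (3.71 to 3.96). Cox6b1 in SL (2.89 to 3.19) lay wholly below NL (3.31 to 3.35), though its probes differed in sign in that comparison. SL and NL overlapped for Cox8a, Cox4i1, Cox7a2 and Ndufa4. Among the tissue forms, Cox4i2, the lung form that also serves oxygen sensing, had 0.01, −0.36 and −0.86 in ZDL, −0.10, −0.20 and −0.33 in DL, −0.95, 0.07 and 1.13 in SL, and 0.13, −0.28 and −0.82 in NL. Cox6a2, the heart and muscle form, had −2.37, −3.80 and −3.22 in ZDL, −2.42, −2.58 and −3.42 in DL, −3.17, −2.91 and −2.81 in SL, and −2.70, −2.91 and −3.44 in NL. Neither separated the groups.

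Cox8b, the heart and muscle form of the smallest subunit, varied most among all members, with a range of 3.52 over the 12 arrays. It was −3.09, −3.24 and −1.19 in ZDL, −2.55, −0.68 and −1.51 in DL, −2.82, −2.75 and −2.71 in SL, and −2.46, −2.47 and 0.28 in NL. The high arrays were NL3, DL2, ZDL3 and DL3. The 2 spots of the probe lay close on NL3 (0.18 and 0.39) and further apart on ZDL3 (−1.505 and −0.866). The same 4 arrays had the 4 highest summed levels of choroid plexus markers and of meninges markers. The choroid plexus sum (7 of 8 markers tested, 4 of them above background on all 12 arrays) was 2.82 to 6.76 in ZDL, 4.37 to 7.40 in DL, 0.18 to 4.41 in SL and 2.48 to 7.03 in NL. The meninges sum (4 of 4 markers tested, 3 above background on all arrays) was 0.83 to 2.54 in ZDL, 1.26 to 3.48 in DL, 1.34 to 1.54 in SL and 1.27 to 4.02 in NL. On those 4 arrays the sums were 6.76 or more and 2.53 or more, and on the other 8 they were 4.41 or less and 1.54 or less. The part of these tissues in the Cox8b values was not tested, and no direction between groups is given for the gene.

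Cox8c, the testis form, was not well above background on any of the 12 arrays. Cox7c, a ubiquitous subunit, could not be tested because its 1 probe had no usable spot on NL3. It was well above background on 2 of 3 ZDL, 2 of 3 DL, 3 of 3 SL and 0 of 3 NL arrays. Its values were −1.72, −4.09 and −5.69 in ZDL and −3.21, −5.10 and −3.61 in DL. They were −1.48, −3.23 and 1.08 in SL, and −7.51 and −6.33 on NL1 and NL2. With a spread from −7.51 to 1.08 on 1 probe, and from −3.23 to 1.08 within SL, no direction between groups is given for Cox7c.

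Complex V, ATP synthase, joins a catalytic F1 head through stalks to a membrane rotor, and its 15 genes had medians of 0.05 between SL and NL, 0.02 between DL and SL, −0.05 between ZDL and DL and −0.03 between ZDL and SL. All 4 medians turned sign in some alternatives: the first ran from −0.16 to 0.13 and was below 0 in 9 of 26, the second was below 0 in 1 of 27, the third ran from −0.17 to 0.03 and was below 0 in 23 of 27, and the last ran from −0.08 to 0.13 and was below 0 in 20 of 27. Atp5f1d, a subunit of the central stalk of F1, had 3.40, 3.60 and 3.88 in DL, against 3.33, 3.24 and 3.17 in SL. DL lay wholly above SL, with a change of 0.38 ± 0.15 (SE, n = 3 each; adjusted p = 0.385), while ZDL had 3.54, 3.37 and 3.63 and NL 3.47, 3.55 and 3.33. Atp5pb, a peripheral stalk subunit measured by 10 spots, had 4.29 to 4.55 in SL, below all ZDL (4.58 to 4.88), DL (4.67 to 5.02) and NL arrays (4.72 to 4.99). It was singled out after its values were seen.

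Atp5if1, the inhibitor that stops ATP synthase from running backwards when respiration fails, had 3.91, 3.68 and 3.82 in SL, against 2.81, 3.59 and 2.86 in NL. The change was 0.72 ± 0.36 (SE, n = 3 each; adjusted p = 0.614). DL had 3.43, 2.14 and 3.57, wholly below SL, with a change of −0.76 ± 0.36 (adjusted p = 0.465), and ZDL had 3.57, 3.50 and 3.93, with 0.62 ± 0.36 against DL (adjusted p = 0.536). The DL2 value averages spots of 0.14 and 4.14. With the brighter spot all 12 arrays lay between 3.58 and 4.18, and the change between DL and SL turned to 0.18 and that between ZDL and DL to −0.16.

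Low outlying values of the members were concentrated on the arrays whose replicate spots agreed least. Among the member values, 20 lay more than 1 log2 below the gene's own 12-array median and 4 above it, a limit chosen after the values were seen. Of the 20 low ones, 18 were on those 5 arrays with over 20% variation between spots (18 of 400 values, 4.5%) and 2 on the other 7 arrays (2 of 560, 0.357%). For all features the shares below were 7.38 and 2.28%. By array the low members numbered 0, 0 and 6 in ZDL, 0, 2 and 4 in DL, 0, 0 and 0 in SL, and 1, 4 and 3 in NL. Of these 20 values, 11 came from probes whose 2 spots on that array lay over 1 log2 apart, 6 from probes with 1 spot, and 3 from probes whose spots agreed more closely. SL held no low value; the part of these values in the differences from SL was not tested.

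Precision followed the number of spots behind a gene. The 13 members with 10 spots per array had a median within-group SD of 0.136 log2 (0.0677 to 0.253), the 54 with 2 spots 0.232 (0.098 to 1.08) and the 13 with 1 spot 0.284 (0.125 to 0.949). Ndufb3, an accessory subunit of complex I with 10 spots, was the steadiest, with a range of 0.236 over all 12 arrays. Atp5f1b, the catalytic beta subunit of ATP synthase, also has 10 spots and had a range of 1.02, with 1 low NL array (1.63).

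**Figure D4:**
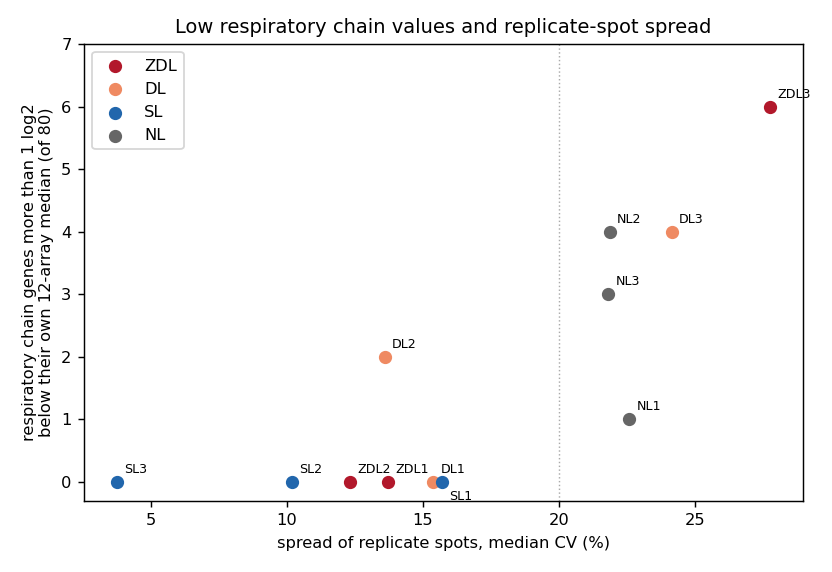
The number of respiratory chain genes more than 1 log2 below their own 12-array median on each array (y axis, of 80) against the array's replicate-spot spread as the files give it (x axis, %). The 5 arrays right of the dotted line at 20% hold 18 of the 20 low values; of the other 7 arrays only DL2 holds any.

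Several probes of 1 gene did not always move the same way. Of 16 members with several tested probes, 11 had probes of opposite sign with a gap over 0.5 log2 in some comparison: Atp5mc2, Cox6b1, Ndufa10l1, Ndufab1, Ndufaf4, Ndufaf7, Ndufb10, Ndufs4, Ndufs5, Ndufv3 and Uqcr11. Ndufaf4, with 4 probes, had changes from −0.44 to 1.33 between SL and NL, and the pair of Ndufb10 probes had −0.19 and 1.49. RefSeq also names 111 pseudogenes under the rule, and 43 members have at least 1 pseudogene or like copy named after them, so a probe may take up signal from a copy. Whether it did was not tested.

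Genes around the chain showed the same lack of calls: no member of 7 related lists passed the test in any comparison. The lists were 16 regulators of mitochondrial biogenesis, 66 proteins of the mitochondrial ribosome, 18 genes of the citric acid cycle and pyruvate dehydrogenase, 24 assembly factors outside the name rule, 14 carriers and outer membrane proteins, 9 chain components outside the rule, and 8 uncoupling and antioxidant genes. Between SL and NL most of the lists leaned lower in SL, as the members did. Of all features 55.4% were higher in SL, and of those with a symbol 50.24%. Higher in SL were 3 of 24 assembly factors outside the rule (median −0.08) and 4 of 18 citric acid cycle genes (−0.10). So were 27 of 66 of the mitochondrial ribosome (−0.08), 5 of 14 carriers (−0.06) and 3 of 8 uncoupling and antioxidant genes (−0.10). The biogenesis regulators had 8 of 16 higher (0.00) and the chain components outside the rule 5 of 9 (0.12). Between DL and SL, 16 of 24 assembly factors were higher in DL (median 0.11), 11 of 18 citric acid cycle genes (0.05), 35 of 66 of the mitochondrial ribosome (0.03), 5 of 14 carriers (−0.02), 4 of 8 uncoupling and antioxidant genes (0.01), 10 of 16 biogenesis regulators (0.05) and 3 of 9 chain components outside the rule (−0.21).

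Ppargc1a, the coactivator PGC-1alpha that drives mitochondrial biogenesis, had −2.58, −2.83 and −2.71 in ZDL, against −1.99, −2.15 and −1.96 in DL. The groups did not overlap and the change was −0.67 ± 0.19 (SE, n = 3 each; adjusted p = 0.177). Pprc1, a related coactivator, had −0.81, −0.84 and −0.64 in SL, against −1.27, −1.38 and −1.40 in NL, with a change of 0.59 ± 0.13 (adjusted p = 0.305). Both were named as the 2 genes of their list with the smallest p.

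Mrpl52 of the mitochondrial ribosome had −2.23, −2.03 and −3.09 in DL, against −1.23, −1.25 and −1.70 in SL, with a change of −1.06 ± 0.26 (SE, n = 3 each; adjusted p = 0.137). Mrpl55 had 0.98, 0.38 and −0.05 in ZDL, against 1.72, 1.53 and 1.72 in DL, with a change of −1.22 ± 0.35 (adjusted p = 0.171). Both pairs of groups were apart. Coq7, which makes ubiquinone, changed by −0.41 ± 0.12 between DL and SL (adjusted p = 0.227). Cycs, cytochrome c itself, had 3.90, 4.09 and 4.15 in DL, against 3.64, 3.78 and 3.78 in SL, a change of 0.31 ± 0.13 (adjusted p = 0.424).

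The remaining genes named by the rule stayed under 1 log2. Idh3a of the citric acid cycle had a change of 0.42 ± 0.14 between ZDL and SL (adjusted p = 0.656). Acad9, a complex I assembly factor, had 0.48 ± 0.15 between DL and SL (adjusted p = 0.266) and Tmem126b, another, −0.43 ± 0.17 between SL and NL (adjusted p = 0.571). Tomm20, an import receptor of the outer membrane, had 0.35 ± 0.14 between DL and SL (adjusted p = 0.38) and Slc25a11, the oxoglutarate carrier, 0.47 ± 0.23 between ZDL and SL (adjusted p = 0.678). Ucp2, an uncoupling protein, had 0.60 ± 0.19 between DL and SL (adjusted p = 0.262) and Prdx5, a mitochondrial peroxiredoxin, −0.83 ± 0.28 between SL and NL (adjusted p = 0.507).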

How the data were processed

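Gene expression in the striatum was measured on 12 single-colour arrays, with 3 in each of 4 groups taken from the sample labels. Per the file headers, the authors extracted the scans with Feature Extraction 10.7.3.1 (10.7 in the submitters' processing notes); their processed signal is an intensity after background subtraction and detrending within the array, not scaled between arrays. The deposited series table held the same intensities for the 62976 spots of every array (relative tolerance 1e-06). The files' flags for outliers and for spots well above background, deposited by the authors as 0 or 1, were used as filters.

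Here, outlier spots were left out, spots of a probe were averaged, log2 values were scaled by each array's 75th percentile, and probes well above background on at least 0.5 of their spots on all 3 arrays of 1 group were kept (21469). Symbols came from RefSeq accessions (GRCr8); 13039 probes had none and the array design was built on an older assembly. The brightest probe stood for a gene. One limma 3.58.1 fit (R 4.3.3, 8 residual and 2.13 prior degrees of freedom) over all groups gave each comparison, with Benjamini-Hochberg adjustment over 19412 features. The fit was tested on simulated data.

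Members and lists were chosen with earlier results of these data known. Genes named with values are those with the 5 smallest p per comparison, complex II subunits, isoform pairs, Atp5if1, genes whose probes disagree, and 2 of each related list, of which 1 gene is not reported here. ZDL and DL arrays of the same number share a slide, and their deviations from the group means correlated at 0.37, 0.194 and 0.254. Those of the other comparisons ran from −0.183 to 0.198, both ends being pairs on a shared slide. The labels do not say that the numbers pair the arrays. The values reported come from a fit without pairing, and the replicate block was an alternative. The normexp alternative used median spot and background intensity, deposited without subtraction per the file headers. With 3 arrays per group, the number of arrays limits precision.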

Additional observations from a re-analysis of the deposited data

How the results depend on the processing

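No respiratory chain gene was called in any of 4 comparisons under any of the 26 or 27 alternatives, the replicate block included. Few of all features were called in many of them. Between SL and NL at most 13 were (without NL replicate 3), and between ZDL and SL at most 3 (without ZDL replicate 1). With only the groups compared, or with slide as a fixed block, 0 were called in any comparison. With the replicate block 34 were called between DL and SL and 13 between ZDL and DL, against 84 and 93 in the analysis as reported. The members' smallest adjusted p with that block was 0.449 between SL and NL and 0.26 between DL and SL. It was 0.232 between ZDL and DL and 0.629 between ZDL and SL. Array weights gave the smallest adjusted p of all, 0.0828 for Ndufaf7 between DL and SL, where 446 of all features were called. The members' median change moved with the scaling. With quantile normalization it was −0.2006 between SL and NL, 0.1186 between DL and SL, 0.01371 between ZDL and DL and 0.1317 between ZDL and SL. With normexp correction it was −0.2241, 0.1443, −0.001594 and 0.1755 in that order. With median scaling it was −0.1879 between SL and NL, 0.03677 between ZDL and DL and 0.1078 between ZDL and SL. The next pair of alternatives was added after seeing the data. With the brightest spot of a probe it was −0.1875 between SL and NL, 0.1261 between DL and SL and 0.07523 between ZDL and SL, and without the 5 arrays of wide replicate-spot spread it was −0.006671 between ZDL and DL (not possible for NL, whose arrays are all among them). The median over all features moved too, between SL and NL from 0.05 to −0.09 with quantile normalization. With the brightest spot it went to −0.03 there, a choice that raises arrays whose spots disagree more.

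The share of members higher in SL than in NL was 36.25% in the analysis as reported, and 18.8% with quantile normalization, 28.7% with normexp, and 21.2% with median scaling or the brightest spot, where all features had 39.6, 38.3, 41.4 and 45.6%. Between ZDL and SL it was 50%, and 70, 65, 71.2 and 60% under the same 4, with 58.7, 60.1, 56.6 and 49.8% of all features. Between ZDL and DL it was 43.75%, and 53.8% with quantile normalization and 56.2% with median scaling; between DL and SL it was 65%, and 76.2% with the brightest spot. Leaving out 1 array at a time gave medians of −0.09108 to −0.05463 between SL and NL, 0.0241 to 0.08888 between DL and SL, −0.09314 (without DL replicate 1) to −0.01846 (without DL replicate 3) between ZDL and DL, and −0.008998 to 0.05751 (without ZDL replicate 2) between ZDL and SL. Of 25 gene results in 667 settings, 661 kept their sign and 6 turned: Sdhaf1 between SL and NL (0.02268) and between DL and SL (−0.127) with normexp, Sdhb between SL and NL with slide as a fixed block (0.1276), and with the brightest spot Sdhc between SL and NL (−0.167), Atp5if1 between DL and SL (0.1788) and between ZDL and DL (−0.1628). Settings that cannot move a change are among the 661. The causes of the turns were not tested, beyond the spot values given for Sdhc and Atp5if1. Among the members, signal over background kept only Cox8c from being tested.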
